A study of Mus musculus with 18 samples.

Results

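The BCL2 family decides whether the outer membrane of the mitochondrion is opened in apoptosis, and 10 of its genes were followed in mouse kidney tubules through primary culture. The genes were taken by name: the anti-death members Bcl2, Bcl2l1 and Mcl1, the pore-forming effectors Bax and Bak1, and the BH3-only members Bid, Bcl2l11, Bbc3, Pmaip1 and Bmf. These are 10 of the 55421 genes in the deposited tables. All 10 passed the filter on low counts, which left 18754 genes to test.

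RNA with poly(A) tails was sequenced from 18 libraries, replicates A, B and C on each of days 0, 1, 2, 4, 7 and 14. Day 0 is the day on which proximal tubules were isolated, by collagenase and a Percoll gradient, from the kidneys of female C57BL/6J mice, 6 weeks old and wild type (the strain field of the labels reads C57BL/6). The other days are tubule cells kept on plastic without passage and with no further treatment. No label ties a replicate, though called biological, to an animal or a culture, so the p-values measure the spread between these libraries, which may be technical.

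Estimated counts per library totalled 23799559 to 37579097. Levels are given in 2 ways. CPM (counts scaled to a common library size, with TMM factors) serve to compare days, and TPM (transcript abundance, which allows for gene length) serve to compare genes and to add them up. Values of 3 libraries are always in the order A, B, C. The 6 markers of proximal tubule summed to 16270 to 18980 CPM per library on day 0, 3408 to 6773 on day 1, 18.6 to 29.1 on day 4 and 8.62 to 17.8 on day 14, so that the labelled cell type was carried by its markers on day 0 and hardly at all from day 4. Of these markers none was at 0 counts in all 3 libraries of a day. Summed markers of other cells ran, from day 0 to day 14, from 2674 to 3371 down to 2.84 to 7.23 CPM for thick ascending limb (2 genes), from 102 to 137 down to 1.12 to 1.99 CPM for endothelium (3 genes) and from 20.3 to 23.6 up to 119 to 165 CPM for fibroblast and pericyte (3 genes). Of these 3, Col1a1 and Col1a2 were higher on day 14, while Pdgfrb was at 12 to 14.5 CPM on day 0 and 2.77 to 5.51 on day 14. The other lists ran from 1090 to 1345 down to 0.587 to 1.92 CPM for distal convoluted tubule (1 gene), from 444 to 726 down to 0.293 to 0.404 CPM for collecting duct (3 genes, of which Slc4a1 was at 0 in all day 14 libraries), from 137 to 164 down to 17.7 to 21.8 CPM for podocyte (2 genes) and from 5.62 to 12.8 to 4.75 to 8.23 CPM for leukocyte (4 genes, of which Cd3e was at 0 in all libraries from day 4 on). The part of these shifts in the levels below was not tested. In bulk RNA, fewer cells of a type and less RNA per cell cannot be told apart. Day 7 replicate C stood apart from A and B: the chi-square of its counts per degree of freedom was 144 and 147, against 9.81 between A and B. Its summed markers of endothelium were 24.6 CPM, against 3.67 in A and 4.92 in B, and those of podocyte 77.5 CPM, against 25.0 and 27.9. Those of thick ascending limb were 1.24 CPM (4.78 and 5.38), of distal convoluted tubule 0.750 (4.42 and 2.83), of leukocyte 3.23 (7.33 and 8.86), of proximal tubule 14.4 (6.67 and 9.39), of collecting duct 1.73 (1.59 and 4.00) and of fibroblast and pericyte 78.5 (94.9 and 90.5). These go with the low Bcl2, Bbc3 and Bmf of that library given below, and their part in them was not tested.

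Anti-death members hold the effectors in check by closing over a short helix, the BH3 domain, in a groove on their surface. BAX and BAK1, once released or activated, assemble in the outer mitochondrial membrane and let cytochrome c out. BH3-only proteins are sensors of stress that occupy the groove or activate the effectors directly, and several of their genes are switched on by p53 or by the stress factor CHOP. In kidney, tubule cells die in this way after ischemia and after nephrotoxic drugs. Much of the control of these proteins lies after transcription, in cleavage, phosphorylation and turnover, which RNA does not show.

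The shared BH3 helix is what makes these genes a family, so its coding stretch is shown for 9 of the 10 members, read from the GENCODE vM21 transcripts (GRCm38). Capitals mark the 18 bases of the core (a leucine codon, 3 codons of any kind, a glycine or alanine codon and an aspartate codon), with 12 bases on each side, 5′ to 3′ along the coding strand.
Bcl2: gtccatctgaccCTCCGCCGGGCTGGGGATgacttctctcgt
Bcl2l1: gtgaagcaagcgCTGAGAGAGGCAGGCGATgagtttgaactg
Mcl1: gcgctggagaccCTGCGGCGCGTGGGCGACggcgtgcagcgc
Bax: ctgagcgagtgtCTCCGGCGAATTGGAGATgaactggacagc
Bak1: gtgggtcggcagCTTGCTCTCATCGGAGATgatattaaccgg
Bid: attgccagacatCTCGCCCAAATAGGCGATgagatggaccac
Bcl2l11: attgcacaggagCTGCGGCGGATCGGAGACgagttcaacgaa
Bbc3: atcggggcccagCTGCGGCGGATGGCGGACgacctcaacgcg
Bmf: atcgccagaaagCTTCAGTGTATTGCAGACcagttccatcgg

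The core codes for glycine ahead of the aspartate in 7 of these members and for alanine in 2, Bbc3 and Bmf. The closest cores were those of Bcl2l11 and Bbc3, with 15 of 18 bases identical, and the most distant those of Bcl2l1 and Bmf, with 5. The pattern alone is not specific to the family: 23.9% of 21510 mouse proteins coded in the same annotation hold it, or 8.56% with a hydrophobic residue before the glycine or alanine, which all 9 cores have.

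Members of both camps rose in culture. By day 14, Bcl2l1 and Bcl2 on the anti-death side and Bax, Bcl2l11, Bbc3 and Pmaip1 on the pro-death side stood above day 0, by 2.34-fold (Bcl2l1), 3.55-fold (Bcl2), 4.86-fold (Bax), 3.12-fold (Bcl2l11), 15.2-fold (Bbc3) and 5.50-fold (Pmaip1). The rise of Mcl1, 2.497-fold on day 1, was over by day 4 on the TMM scale. Bid fell on day 1 to 0.471 of its day 0 level. Bmf fell to 0.116 of it and was back on day 7. Errors and tests follow gene by gene.

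All 10 members varied over the 6 days (edgeR quasi-likelihood, Benjamini-Hochberg adjusted p under 0.05 for any difference among the days), as did 89.8% of all genes tested. On day 1, 7 members were higher and 3 lower than on day 0, where 70.2% of all genes tested (33.1% higher, 37.1% lower) passed the same threshold. None of the 10 had overlapping libraries in that comparison, as held for 74.5% of genes. On day 2, 7 were higher and 3 lower, against 74.2% of all genes tested, 38.9% higher and 35.3% lower, again with no overlap for any of the 10 (79.2% of genes). Day 4 had 6 higher and 2 lower than day 0, against 74.9% of all genes tested, 38.1% higher and 36.8% lower. No overlap was found for 9 members (81.3% of genes). Day 7 had 7 higher and 1 lower, against 69.8% of all genes tested, 37.6% higher and 32.1% lower, with no overlap for 8 members (70.8% of genes). Day 14 had 7 higher and 1 lower, against 69.5% of all genes tested, 37.4% higher and 32.1% lower, with no overlap for 7 members (77.8% of genes). Since most genes differed from day 0, these counts alone say little about the family. What the members' own values add is which of them rose and fell, how far, and when.

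The direction was mostly upward. The median log2 fold change of the 10 members against day 0 was, in the order of days 1, 2, 4, 7 and 14, 0.97, 0.82, 1.22, 1.37 and 1.43, beside -0.01, 0.14, 0.08, 0.16 and 0.16 for all genes. These 5 comparisons share the day 0 libraries. Scaling matters here: with library sizes alone in place of TMM, the median of all genes moved by 0.3, 0.51, 0.49, 0.5 and 0.56 in these comparisons, by 0.21 for day 2 against day 1, and the share of higher genes among those called went from 47.2 to 58.3%, from 52.4 to 67.3%, from 50.9 to 64.9%, from 53.9 to 70.3% and from 53.8 to 71.9%. Under that scaling 8 members were higher and 2 lower on day 4, 8 and 1 on day 7, and 8 and 0 on day 14. By limma on log2(TPM + 1), all 10 members were higher on day 14 than on day 0, where 10791 of 17415 genes were higher and 2891 lower.

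**Figure D1:**
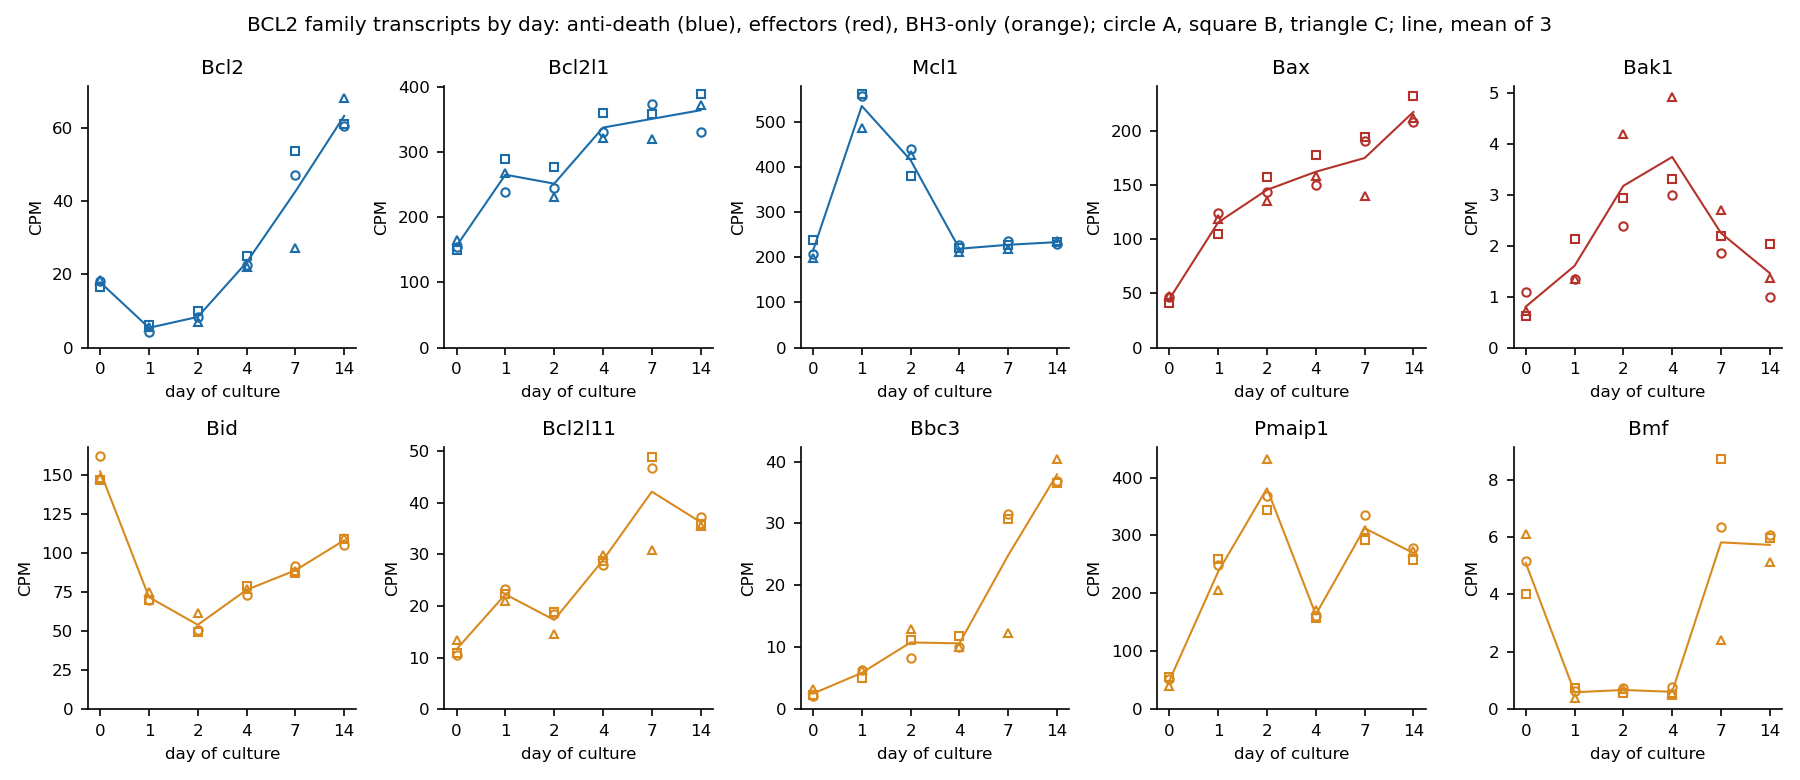
Level of each member in CPM (y axis, from 0, a scale for each panel) on days 0, 1, 2, 4, 7 and 14 (x axis, evenly spaced). Symbols are the libraries A, B and C and lines join the means of 3. Mcl1 peaks on day 1 and Pmaip1 on day 2, and Bid and Bmf are lowest on days 1 to 4. Replicate C of day 7 lies below A and B for Bcl2, Bcl2l11, Bbc3, Bmf and Bax, and by less for Bcl2l1 and Mcl1.

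Among the anti-death members, Bcl2l1, which encodes BCL-XL (ENSMUSG00000007659, chromosome 2, 152780668 to 152831728, minus strand, GRCm38 here and for the genes below), rose on day 1 and stayed above day 0. Its libraries had 154, 149 and 164 CPM on day 0, 239, 288 and 268 on day 1 and 245, 277 and 232 on day 2. They had 330.1, 360.4 and 321 CPM on day 4, 374, 358 and 320.0 on day 7 and 331, 389 and 371 on day 14. Every culture library lay above every day 0 library, and the libraries of days 4, 7 and 14 overlapped each other. The log2 fold change against day 0 was 0.77±0.10 (SE) on day 1, 1.11±0.10 on day 4 and 1.22±0.10 on day 14, with adjusted p = 2.88e-06, 2.87e-08 and 1.16e-08 (edgeR quasi-likelihood, BH). The step from day 2 to day 4 passed (0.42±0.10, adjusted p = 0.00214), while those from day 1 to day 2, day 4 to day 7 and day 7 to day 14 did not (-0.08±0.10, 0.06±0.09 and 0.05±0.09).

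Mcl1 encodes a short-lived anti-death protein whose mRNA is also quickly turned over (ENSMUSG00000038612, chromosome 3, 95658788 to 95663176, plus strand), and its rise was brief. The libraries had 207, 238 and 199 CPM on day 0, 557, 562 and 488 on day 1 and 439, 380.3 and 427 on day 2. From day 4 on they were back near the day 0 values, with 227, 219.8 and 211 CPM on day 4, 237, 228 and 219 on day 7 and 231, 235 and 236 on day 14. Days 1 and 2 did not overlap any other day or each other, and days 4, 7 and 14 each overlapped day 0. Mcl1 rose by 1.32±0.08 (log2, SE) on day 1 (BH-adjusted p = 1.31e-09 by edgeR quasi-likelihood), fell by 0.37 from day 1 to day 2 (adjusted p = 0.00274) and fell by 0.92 from day 2 to day 4 (adjusted p = 6e-07). Against day 0 it was 0.03±0.08 on day 4, 0.09±0.08 on day 7 and 0.12±0.08 on day 14, with adjusted p = 0.745, 0.357 and 0.19. These late values depend on the scaling: with library sizes alone they were 0.53, 0.59 and 0.69, and by limma on log2(TPM + 1) 0.76, 0.83 and 0.94, each with an adjusted p of at most 1.75e-06. The day 14 value also passed without day 0 replicate B (0.21, adjusted p = 0.0434, edgeR quasi-likelihood, BH) or day 2 replicate A (0.20, adjusted p = 0.029), and the day 7 value without day 2 replicate A (0.18, adjusted p = 0.0444). With library sizes alone or by limma the step from day 1 to day 2 did not pass.

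Bcl2 itself, the founding member (ENSMUSG00000057329, chromosome 1, 106538178 to 106714274, minus strand), took the opposite early course and ended higher than it began. It had 18.2, 16.6 and 18.5 CPM on day 0, 4.35, 6.20 and 5.62 on day 1 and 8.21, 9.89 and 6.97 on day 2. It reached 22.5, 25.1 and 22.1 CPM on day 4, 47.0, 53.6 and 27.1 on day 7 and 60.5, 60.9 and 68.1 on day 14. Libraries of consecutive days did not overlap anywhere in the course, although day 7 replicate C had 0.538 of the mean of A and B. Bcl2 fell on day 1, by 1.72 on the log2 scale (SE 0.21, adjusted p = 2.1e-06, edgeR quasi-likelihood, BH), rose from day 2 to day 4 by 1.47±0.20 (adjusted p = 3.43e-05) and from day 4 to day 7 by 0.87±0.20 (adjusted p = 0.00262). On day 14 it was 1.83±0.20 above day 0 (adjusted p = 5.75e-07). The day 4 value against day 0, 0.38±0.20, did not pass (adjusted p = 0.0879) but did in 10 of 27 alternatives (adjusted p from 0.000287 to 0.0352), those without day 2 replicate A, day 7 replicate C or any library of day 14 among them. The fall on day 2, -1.09±0.20, was not called by limma on log2(TPM + 1) (-0.28, adjusted p = 0.156). An antisense gene, D630008O14Rik, overlaps the span of Bcl2, introns included, over 33103 bases. On the same strand Gm37053 overlaps it over 2087 bases and Mir3473f over 136. Overlap of exons was not measured and the strandedness of the counting is not given, so whether reads are shared is not known.

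The effector Bax (ENSMUSG00000003873, chromosome 7, 45461697 to 45466898, minus strand) rose on day 1 and no later step was a fall that passed the test. Its libraries had 46.4, 40.8 and 47.3 CPM on day 0, 124, 105 and 118 on day 1 and 144, 157 and 136 on day 2. They had 151, 178 and 159 CPM on day 4, 191, 194 and 140.0 on day 7 and 209, 232 and 212 on day 14. All culture libraries lay above all day 0 libraries, and day 14 lay above every earlier library. The log2 fold change against day 0 was 1.37±0.12, 1.70±0.12, 1.86±0.12, 1.97±0.12 and 2.28±0.12 (SE) for days 1, 2, 4, 7 and 14, with an adjusted p of at most 4.76e-08 (edgeR quasi-likelihood, BH). Of the later steps only that from day 1 to day 2 passed (0.33±0.12, adjusted p = 0.0364), and it did not pass without day 1 replicates B or C or day 2 replicates A or B, with DESeq2 size factors or with no filter. Without day 7 replicate C, the step from day 4 to day 7 passed (0.25, adjusted p = 0.0367). The span of Gm45808, on the same strand, overlaps that of Bax over 915 bases.

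Bak1 (ENSMUSG00000057789, chromosome 17, 27019810 to 27029009, minus strand), the other effector, was scarce in every library. The estimated counts per library were 14 to 23 on day 0 and 95 to 140 on day 4. In CPM these were 1.09, 0.612 and 0.719 on day 0, 1.34, 2.14 and 1.34 on day 1 and 2.39, 2.95 and 4.21 on day 2. The later values were 3.01, 3.31 and 4.93 on day 4, 1.86, 2.20 and 2.7 on day 7 and 0.994, 2.03 and 1.37 on day 14. Days 1 to 7 did not overlap day 0, whereas day 14 did. Bak1 rose by 1.99±0.35 (log2, SE) on day 2 and 2.22±0.35 on day 4 (adjusted p = 8.46e-05 and 2.5e-05, edgeR quasi-likelihood, BH). Its day 1 value was 1.00±0.36 (adjusted p = 0.0202), and 0.82, 0.93 or 0.75 with adjusted p = 0.0878, 0.0608 or 0.092 without day 0 replicate B, day 0 replicate C or day 1 replicate B. The day 14 value of 0.86±0.35 (adjusted p = 0.0402) was likewise not called in 7 of 27 alternatives, among them those without day 0 replicates B or C or day 14 replicate B (adjusted p = 0.15, 0.105 and 0.133). The span of Bak1 lies wholly within that of Ggnbp1, which runs on the opposite strand. Overlap of their exons was not measured, and strandedness is not given, so whether reads are shared is not known.

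Of the BH3-only members, Pmaip1, which encodes NOXA, an inhibitor of MCL1 (ENSMUSG00000024521, chromosome 18, 66458533 to 66465565, plus strand), was the most abundant in culture and moved in 2 waves. It had 51.5, 56.2 and 39.3 CPM on day 0, 248, 259 and 206 on day 1 and 368, 344 and 432 on day 2. Day 4 had 161, 158 and 172 CPM, day 7 336, 293 and 309.7 and day 14 278, 257 and 273. Libraries of consecutive days did not overlap at any step, and all culture libraries were above day 0. Pmaip1 rose by 2.28±0.13 (log2, SE) on day 1 and stood 2.96±0.13 above day 0 on day 2 (adjusted p = 3.57e-10 and 2.55e-11, edgeR quasi-likelihood, BH). It fell by 1.22 from day 2 to day 4 (SE 0.12, adjusted p = 1.91e-06) and rose by 0.94±0.12 from day 4 to day 7 (adjusted p = 5.93e-05). The difference of day 14 from day 7, -0.21±0.12, did not pass (adjusted p = 0.285).

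Bbc3, which encodes PUMA, a p53-induced protein that binds all anti-death members (ENSMUSG00000002083, chromosome 7, 16308393 to 16318205, plus strand), had the largest fold rise of the 10 by day 14. Its libraries had 2.13, 2.20 and 3.18 CPM on day 0, 6.30, 4.96 and 6.31 on day 1 and 8.18, 11.2 and 12.9 on day 2. On day 4 they had 9.998, 11.9 and 10.003 CPM, on day 7 31.5, 30.8 and 12.3 and on day 14 36.8, 36.6 and 40.4. Days 2 and 4 overlapped each other, and day 7 replicate C, at 0.395 of the mean of A and B, lay near the day 4 values. Against day 0, Bbc3 rose by 1.24±0.30 (log2, SE) on day 1, 2.11±0.30 on day 2 and 3.93±0.31 on day 14, with adjusted p = 0.00173, 9.92e-06 and 1.27e-08 (edgeR quasi-likelihood, BH). The rise from day 4 to day 7 was 1.23±0.27 (adjusted p = 0.00255).

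Bcl2l11, the gene of BIM, an activator of BAX that growth factor signals keep low (ENSMUSG00000027381, chromosome 2, 128126038 to 128162547, plus strand), rose in every comparison with day 0. Its libraries had 10.5, 10.9 and 13.4 CPM on day 0, 23.3, 22.4 and 21.1 on day 1 and 18.4, 18.9 and 14.6 on day 2. Later values were 28.0, 28.7 and 29.98 CPM on day 4, 46.8, 48.8 and 30.9 on day 7 and 37.3, 36.0 and 35.6 on day 14. Each culture day lay above day 0 with no overlap, and on day 7 replicate C lay below and A and B above the libraries of day 14. The log2 fold change was 0.94±0.15, 0.58±0.15, 1.32±0.15, 1.86±0.15 and 1.64±0.15 (SE) for days 1, 2, 4, 7 and 14, with an adjusted p of at most 0.00281 (edgeR quasi-likelihood, BH). Day 14 was -0.22±0.15 from day 7 (adjusted p = 0.375), and -0.40 with adjusted p = 0.0196 without day 7 replicate C.

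Bid, whose protein links death receptors to mitochondria once caspase-8 has cut it (ENSMUSG00000004446, chromosome 6, 120891930 to 120916853, minus strand), fell early. It had 162, 147 and 148 CPM on day 0, 69.8, 70.2 and 75.2 on day 1 and 51.0, 49.3 and 61.8 on day 2. It had 73.1, 79.0 and 77.2 CPM on day 4, 91.6, 87.0 and 88.3 on day 7 and 105, 109 and 110.0 on day 14. Consecutive days did not overlap at any step, and all culture libraries were below all day 0 libraries on this scale. Bid fell by 1.09 (log2, SE 0.08) on day 1 and was 1.5 below day 0 on day 2 (adjusted p = 6.65e-09 and 1.57e-10, edgeR quasi-likelihood, BH), and it rose from day 2 to day 4 by 0.50±0.08 (adjusted p = 0.000126), from day 4 to day 7 by 0.22±0.08 (adjusted p = 0.0383) and from day 7 to day 14 by 0.28±0.08 (adjusted p = 0.0282). Whether it ended below or above day 0 turns with the scaling. By TMM the day 14 value was -0.49±0.08 (adjusted p = 3.6e-05), with library sizes alone it was 0.07 (adjusted p = 0.5), and by limma on log2(TPM + 1) it was 0.33 (adjusted p = 0.000947). The day 7 value, -0.78±0.08 by TMM (adjusted p = 2.52e-07, edgeR quasi-likelihood, BH), was -0.06 by limma on that scale (adjusted p = 0.491). Its mean TPM for days 0, 2 and 14 was 74.5±5.51, 39.7±3.71 and 93.7±2.65 (SD, n = 3). The rise from day 4 to day 7 was lost in 13 of 27 alternatives, among them leaving out any library of days 4 or 14, day 7 replicate A or B, or day 2 replicate A. The span of Bid overlaps that of Gm44260, on the same strand, over 2094 bases. On the opposite strand it overlaps Bcl2l13 over 913 bases and Gm17812 over 318.

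Bmf, a BH3-only gene tied to detachment and the cytoskeleton (ENSMUSG00000040093, chromosome 2, 118528757 to 118549687, minus strand), was near 0 on days 1, 2 and 4 and back on day 7. It had 5.16, 4.03 and 6.11 CPM on day 0, 0.637, 0.727 and 0.399 on day 1 and 0.732, 0.560 and 0.707 on day 2. Day 4 had 0.759, 0.487 and 0.564 CPM, day 7 6.34, 8.71 and 2.40 and day 14 6.06, 5.98 and 5.15. Days 1, 2 and 4 overlapped each other and lay below all libraries of days 0, 7 and 14, while days 7 and 14 overlapped day 0. Counts per library on days 1, 2 and 4 were 11 to 24. Bmf fell by 3.11 (log2, SE 0.40) on day 1 and rose by 3.26±0.39 from day 4 to day 7 (adjusted p = 3.53e-06 and 3.36e-05, edgeR quasi-likelihood, BH). Day 7 was 0.20±0.34 and day 14 0.17±0.34 from day 0 (adjusted p = 0.62 and 0.662). Day 7 replicate C had 0.319 of the mean of A and B, and without it the day 7 value was 0.57 (adjusted p = 0.0363). By limma on log2(TPM + 1), day 14 was above day 0 by 0.80 (adjusted p = 0.0113).

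**Figure D2:**
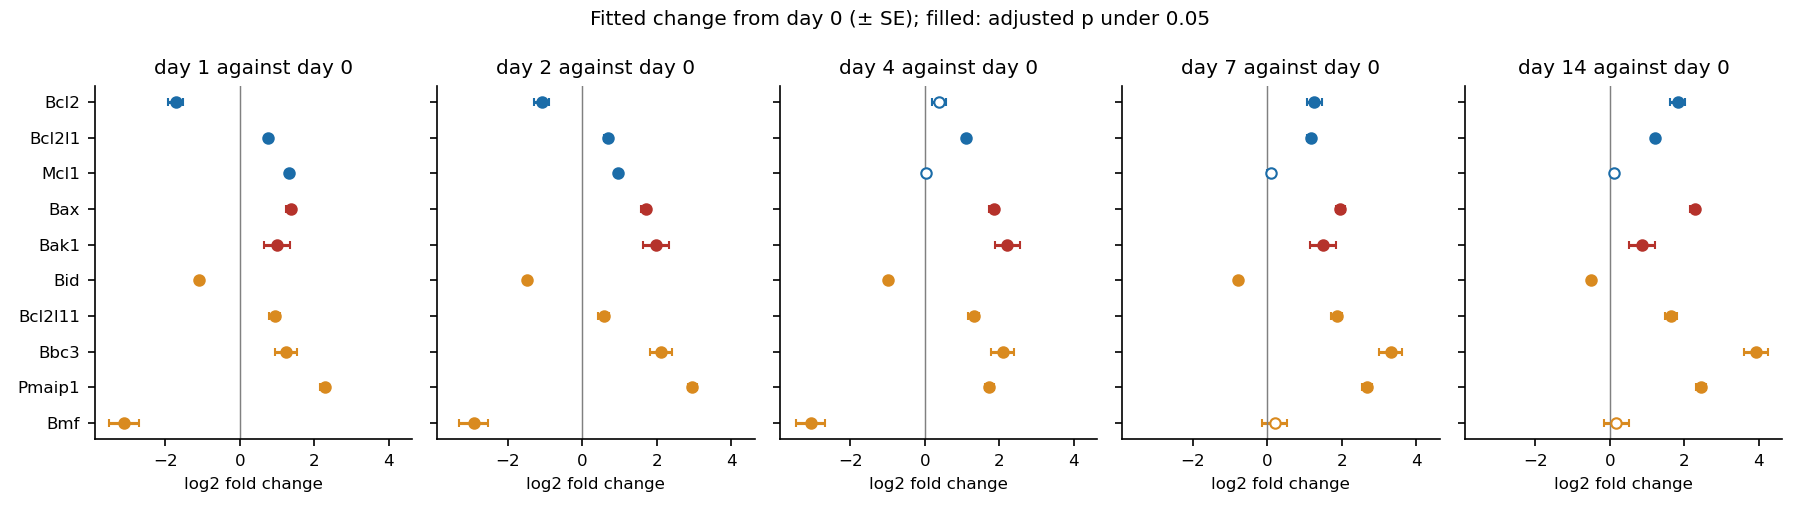
Fitted log2 fold change against day 0 (x axis) of each member (rows) in 5 panels for days 1, 2, 4, 7 and 14. Bars are 1 SE from the fit over all 18 libraries, 3 a day. Anti-death members are blue, effectors red and BH3-only members orange, and filled symbols passed an adjusted p of 0.05. Bax and Pmaip1 lie right of 0 in each panel, Bid left of it, and Mcl1 returns to 0 from day 4.

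Between consecutive culture days fewer members were called than against day 0, though some single steps were large, such as the 3.26±0.39 of Bmf from day 4 to day 7. From day 1 to day 2, 5 members rose (Bcl2, Bax, Bak1, Bbc3 and Pmaip1) and 2 fell (Mcl1 and Bid), where 34.5% of all genes tested (17% higher, 17.5% lower) were called, and 8 had no overlap (49.1%). Without day 2 replicate B 4 members were called, where 4887 of 19259 genes were. With library sizes alone 5 rose and 0 fell (the share of higher genes went from 49.3 to 71.5%). From day 2 to day 4, 4 rose (Bcl2, Bcl2l1, Bid and Bcl2l11) and 2 fell (Mcl1 and Pmaip1), against 41.4% of all genes tested, 19.4% higher and 22.1% lower. No overlap was found for 6 members (58.4% of genes). From day 4 to day 7, 6 rose and 0 fell, against 37.9% of all genes tested, 22% higher and 15.9% lower, and 7 had no overlap (42.7% of genes). These 6 were Bcl2 and all 5 BH3-only members. With only the libraries of the 2 days in the fit 2 members were called, where 3609 of 16502 genes were. Without day 7 replicate C the count was 7 higher and 1 lower, where 9535 of 19260 genes were called, 5387 higher and 4148 lower. From day 7 to day 14 only Bid passed, against 12.5% of all genes tested, 5.07% higher and 7.46% lower. Of the members 5 had no overlap (28.5% of genes), and the share of higher genes went from 40.4 to 58.4% with library sizes alone. That single call was lost without day 7 replicate B or any one of the day 14 libraries.

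On the per-length scale the family was re-ordered in culture. On day 0 the highest member was Bid with 74.5±5.51 TPM (SD, n = 3), followed by Bcl2l1 with 71.4±5.45, Bax with 69.1±7.13 and Mcl1 with 63.4±5.66 TPM. Each of these 4 overlapped its neighbour in the order, so that neighbouring ranks do not differ beyond their spread, but the first and the last did not overlap (70.7 to 80.8 TPM for Bid, 58.4 to 69.6 for Mcl1). Below them and without overlap came Pmaip1 (19.2±2.96 TPM), Bcl2l11 (3.15±0.471) and Bcl2 (2.48±0.210). Bbc3 (1.62±0.508) and Bmf (1.37±0.468) overlapped each other, and Bak1 (0.407±0.133 TPM) was last.

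Bax had the highest mean from day 1 on. On day 1 its 231±27.6 TPM overlapped the 204±10.3 TPM of Mcl1, then came Bcl2l1 (155±12.3), Pmaip1 (117±12.2) and Bid (45.0±3.29) with no overlap. On day 2 Pmaip1 was next to Bax, with 218±18.3 against 327±40.2 TPM. From day 4 Bcl2l1 took the place below Bax, and on day 14 the order was Bax (594±23.9 TPM), Bcl2l1 (289.9±22.3), Pmaip1 (183±9.60), Mcl1 (122±2.64), Bid (93.7±2.65) and Bbc3 (43.6±2.85), each without overlap. Bcl2 (15.8±1.66) and Bcl2l11 (14.8±0.721) overlapped each other, and Bmf (3.11±0.760) and Bak1 (1.36±0.445 TPM) closed the order. At every day Bax exceeded Bak1 by far more than the spread.

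**Figure D3:**
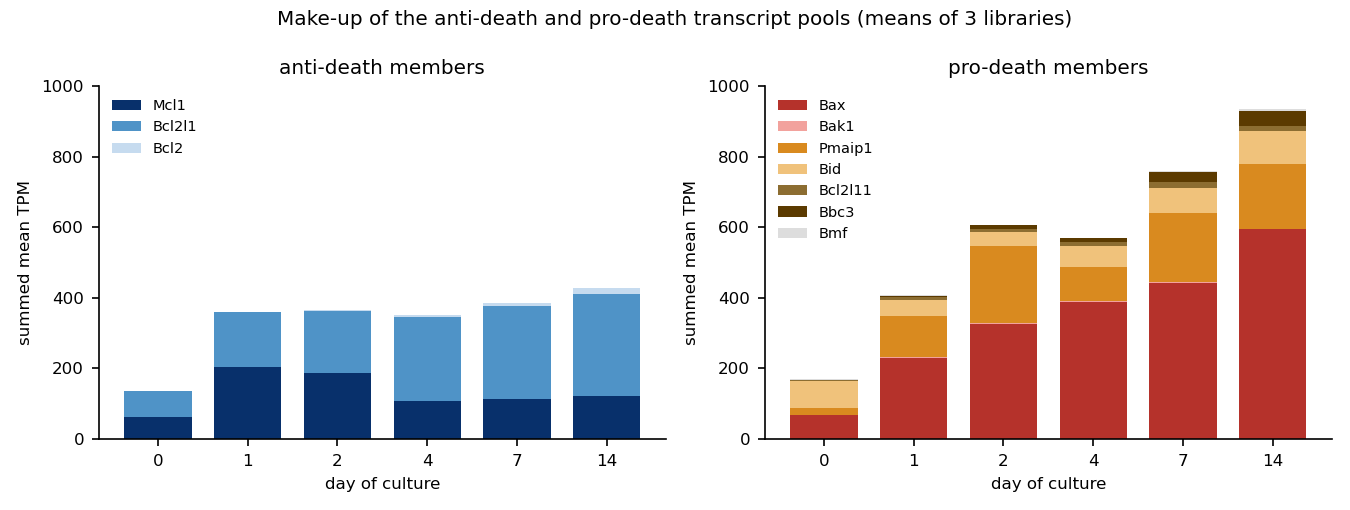
Summed mean TPM (y axis, from 0) of the 3 anti-death members (left) and the 7 pro-death members (right) on each day (x axis), stacked by gene, means of 3 libraries. The anti-death pool goes from 137 to 428 TPM and the pro-death pool from 169 to 934 TPM between day 0 and day 14, with Bax and Pmaip1 making most of the latter in culture.

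Pro-death and anti-death transcripts were then added up within each library, as a description with no test. The 3 anti-death members summed to 137±0.684, 361±6.63, 365±17.4, 351±12.2, 386±18.03 and 428±23.8 TPM in the order of days 0, 1, 2, 4, 7 and 14 (SD, n = 3). The 7 pro-death members summed to 169±10.8, 407±29.9, 606±24.2, 569±25.5, 758±82.0 and 934±15.99 TPM in that order. TPM of most genes were higher on day 14 than on day 0: the median log2 fold change over all genes tested by limma on log2(TPM + 1) was 0.76. In TMM-scaled CPM, where longer genes weigh more, the anti-death members summed to 388±13.6, 806±47.7, 675±15.3, 579.7±25.3, 621±48.8 and 661±33.8 and the pro-death members to 266±11.1, 455±23.9, 613±43.0, 446±17.7, 652±60.3 and 677±3.10 in the order of days (SD, n = 3). On both scales both pools were larger on each culture day than on day 0, but in CPM the anti-death pool was largest on day 1 and in TPM on day 14.

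The ratio of the pro-death to the anti-death sum was 1.31, 1.16 and 1.23 on day 0, 1.23, 1.02 and 1.14 on day 1 and 1.60, 1.66 and 1.71 on day 2. It was 1.54, 1.65 and 1.68 on day 4, 2.03, 2.04 and 1.82 on day 7 and 2.29, 2.14 and 2.12 on day 14. Days 0 and 1 overlapped, as did days 2 and 4, and days 7 and 14 lay above all earlier libraries without overlapping each other. With Bax left out the ratio was 0.730±0.0383, 0.489±0.0283, 0.766±0.0995, 0.519±0.0383, 0.821±0.0241 and 0.794±0.0584 in the order of days (SD, n = 3). Without Bax, days 1 and 4 were the low days and day 14 overlapped day 0. In CPM, which do not allow for gene length, the ratio was 0.687±0.0451, 0.565±0.0255, 0.909±0.0758, 0.770±0.0416, 1.05±0.0199 and 1.03±0.0492 in the order of days (SD, n = 3), with days 7 and 14 overlapping.

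**Figure D4:**
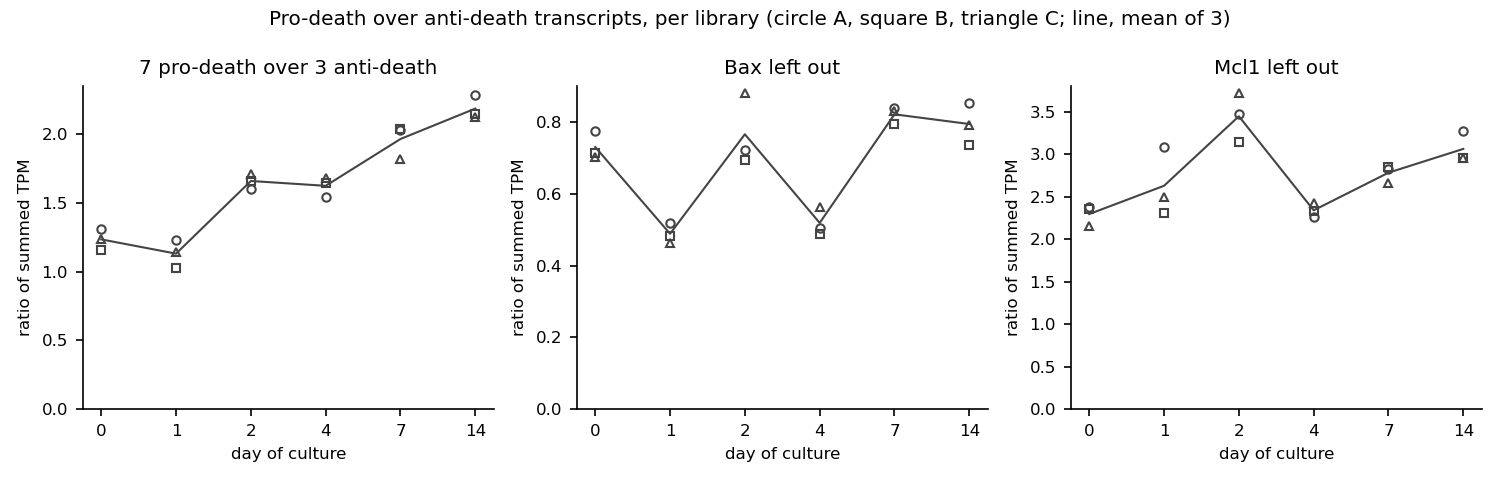
Ratio of summed TPM, pro-death over anti-death members (y axis, from 0), in each library by day (x axis), with all 10 members (left), Bax left out (middle) and Mcl1 left out (right). Symbols are libraries and lines join means of 3. The left panel goes from a mean of 1.23 on day 0 to 2.18 on day 14, while the middle one is at 0.730 and 0.794.

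The make-up of each pool shifted. Bcl2l1 and Mcl1 together made nearly all of the anti-death pool. On days 0, 1, 4 and 14, Mcl1 held 46.2±4.11%, 56.7±3.08%, 30.7±1.07% and 28.6±1.5% of it (SD, n = 3), and Bcl2l1 held 52.0±3.99%, 43.0±3.06%, 67.9±1.03% and 67.7±1.66%. The share of Bcl2 was 1.81±0.148% on day 0, 0.273±0.0255% on day 1 and 3.68±0.327% on day 14. Among the BH3-only transcripts, Bid made 74.6±1.89% on day 0 and 14.4±0.217% on day 2, and Pmaip1 19.2±2.84% and 79.1±0.798%. On day 14 Bid was at 27.8±0.987% and Pmaip1 at 54.1±1.40%. The BH3-only to anti-death ratio was 0.727±0.0373, 0.486±0.0284, 0.759±0.0970, 0.510±0.0357, 0.816±0.0239 and 0.791±0.0593 in the order of days. The effector to anti-death ratio went from 0.506±0.0518 to 1.39±0.0521 between day 0 and day 14.

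The Bax to Bcl2 ratio, often quoted as an index of apoptotic tendency, gave another course than the pooled ratio. In TPM it was 27.7, 27.1 and 28.8 on day 0, 289, 188 and 234 on day 1 and 178, 164 and 181 on day 2. It was 73.4, 76.5 and 75.8 on day 4, 44.3, 39.3 and 55.7 on day 7 and 38.5, 42.1 and 33.3 on day 14. Its highest libraries were those of day 1, where the pooled ratio was lowest, and its denominator was then under 1% of the anti-death pool. The Bax to Bcl2l1 ratio was 0.967±0.0373, 1.5±0.279, 1.87±0.0504, 1.63±0.0659, 1.68±0.173 and 2.05±0.103 in the order of days (SD, n = 3). Its libraries of days 4 and 7 all lay below those of day 2, and those of day 14 above.

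Over the 18 libraries, which share the 6 days, some members ran side by side in log2 CPM. Pearson's r was 0.945 for Bcl2l1 and Bax, 0.932 for Bcl2l1 and Bcl2l11, and 0.914 for Bax and Bbc3, so that these anti-death and pro-death genes were high in the same libraries. The lowest values were -0.822 for Bcl2 and Mcl1 and -0.749 for Bid and Pmaip1. Among 10120 other genes with a mean of at least 10 CPM, the course most like that of Bcl2 was that of Arl2 (r = 0.989), and for Bcl2l1 that of Sgsm3 (0.978). For Mcl1 it was Csrnp1 (0.991) with Jmjd1c (0.989) next, for Bax Cxadr (0.99) and Emp2 (0.985), and for Bak1 Gm42418 (0.915). Among the BH3-only members the nearest were Tmem161a for Bid (0.971), Zfp553 for Bcl2l11 (0.975), Psmd8 for Bbc3 (0.984), Med10 for Pmaip1 (0.975) and Ccndbp1 for Bmf (0.985). All these points share day and library, and no test is attached to them.

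Around the members, 58 other genes of the pathway were read from lists, and 52 of them were tested. Their counts, like the members', depend on the scaling, so each list's split by TMM is followed by that with library sizes alone where the balance of higher and lower differs. Of all genes tested, 33.1% were higher and 37.1% lower on day 1, and 37.4% and 32.1% on day 14. With library sizes alone, 7827 of 18754 were higher and 5598 lower on day 1, and 10373 and 4047 on day 14. Among the 7 other pro-death relatives, 2 higher and 3 lower were called on day 1 and 3 higher and 3 lower on day 14 (3 higher and 3 lower, and 3 higher and 1 lower, with library sizes alone). Bok, another pore-forming relative, rose from 2.77±0.421 CPM on day 0 to 24.4±7.16 on day 1 and 220.1±24.1 on day 4 (SD, n = 3), and was at 199.7±9.76 on day 14, 6.18±0.24 (log2, SE) above day 0 (adjusted p = 3.86e-12, edgeR quasi-likelihood, BH). For Bax and Bak1 the day 14 values were 2.28±0.12 and 0.86±0.35. Bad, a BH3-only gene controlled by survival kinases, fell from 34.4±1.12 to 16.2±1.3 CPM on day 1. Of the other anti-death relatives only 2 of 5 were tested: Bcl2l2 (BCL-W) had 7.01±0.694 CPM on day 0 and 7.24±0.248 on day 14 and was not called at any day by TMM, but was higher on day 14 with library sizes alone (0.61, adjusted p = 0.00157, edgeR quasi-likelihood, BH). Over that list 0 higher and 0 lower were called on day 1 and 0 higher and 1 lower on day 14, against 1 higher and 0 lower, and 1 higher and 0 lower, with library sizes alone.

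Of all genes, 33.1 to 38.9% were higher on the culture days. In the p53 axis all 4 genes were called higher on days 2, 4 and 14, and 3 of them on days 1 and 7. On day 2 it was 3 with DESeq2 size factors, and on days 1 and 7 all 4 with library sizes alone. Trp53 rose from 26.1±1.76 to 114±9.77 CPM on day 1 (log2 2.12±0.14, SE, adjusted p = 1.89e-09, edgeR quasi-likelihood, BH) and was at 123±3.02 on day 14. Cdkn1a, a p53 target that stops the cell cycle, rose from 7.78±3.03 CPM to 982±119.5 on day 2 and was at 195±16.3 CPM on day 4. Its mean, like that of Pmaip1, was highest on day 2 and, among culture days, lowest on day 4. Bax and Bbc3 had another course, with means of 146 and 10.8 CPM on day 2, 162 and 10.6 on day 4 and 218 and 37.9 on day 14. A link between Cdkn1a and any member was not tested. Of the 5 other transcription factors tested, 1 higher and 1 lower was called on day 1 and 1 higher and 1 lower on day 14 (2 higher and 0 lower with library sizes alone). Ddit3, which encodes CHOP, rose from 8.95±0.474 to 60.1±4.63 CPM on day 1, was at 10.6±1.18 on day 4 and at 63.8±3.11 on day 14, while Foxo1, a factor that acts on Bcl2l11 and Bbc3, fell from 76.7±14.98 to 46.4±10.3 CPM on day 1. All 3 genes of MCL1 turnover were higher on each culture day, against the same shares of all genes. Among them Huwe1, a ubiquitin ligase, rose from 58.2±7.88 CPM to 182±29.3 on day 14, and Usp9x, a deubiquitinase, from 143±20.3 to 249.5±14.9 CPM on day 1.

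Since Bax, Bbc3 and Pmaip1 are held to be p53 targets, the 250 bases before each RefSeq start site (GRCm38.p6) were searched on both strands for the p53 decamer, the single unit of the p53 response element (a pattern that is its own reverse complement). All members but Pmaip1 had an entry, 16 entries in all, and Bax and Bmf had a match in 1 entry each. None of the Bbc3 entries had a match. The full site, in which the decamer is repeated close by, was in no entry and in 0.0639% of 32851 windows. The decamer is in 7.13% of 32851 promoter windows of that length, so a match is a description and no site. That of Bax begins 201 bases before the start and is shown in capitals on the minus strand, chr7:45467070-45467119.
Bax: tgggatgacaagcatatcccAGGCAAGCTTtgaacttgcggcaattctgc

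Downstream of the members, genes of the apoptosome and of proteins released from mitochondria went 1 higher and 3 lower of 6 on day 1 and 2 higher and 4 lower on day 14 (2 higher and 2 lower, and 2 higher and 3 lower, with library sizes alone). The shares of all genes, here and for the lists below, were 33.1% higher and 37.1% lower on day 1, and 37.4% and 32.1% on day 14. Apaf1, the scaffold that cytochrome c binds, rose from 5.37±0.194 to 19.5±1.57 CPM on day 1 and 28.9±2.7 on day 14 (log2 2.43±0.17, SE, adjusted p = 2.01e-09, edgeR quasi-likelihood, BH). Endog, a mitochondrial nuclease, fell from 50.2±3.16 to 7.32±0.650 CPM by day 14 and Aifm1, the apoptosis-inducing flavoprotein, from 294±11.5 to 92.3±1.16 CPM. Of the 7 caspases tested, 0 higher and 4 lower were called on day 1 and 3 higher and 2 lower on day 14 (2 higher and 4 lower, and 4 higher and 0 lower, with library sizes alone). Casp6 and Casp9, an executioner and the apoptosome's initiator, fell on day 1, from 39.1±1.15 to 13.5±0.654 CPM and from 56.1±2.57 to 31.5±1.98 CPM, and Casp8, the initiator that cuts BID, was at 35.9±1.65 CPM on day 0 and 62.8±4.55 on day 14 (0.81±0.17, adjusted p = 0.000484).

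Of the 5 inhibitor of apoptosis genes, 1 higher and 2 lower were called on day 1 and 1 higher and 0 lower on day 14 (4 higher and 0 lower with library sizes alone), with Birc3 (cIAP2) rising from 7.92±0.906 to 15.5±2.69 CPM on day 1. Death receptor genes were split, with 5 higher and 4 lower of 9 on day 1 and 3 higher and 5 lower on day 14 (5 higher and 1 lower, and 5 higher and 2 lower, with library sizes alone). Tnfrsf10b, the TRAIL receptor, rose from 0.900±0.465 to 25.3±1.39 CPM by day 14, while its ligand Tnfsf10 fell from 15.7±1.51 to 1.06±0.299 CPM and Fas from 10.2±1.26 to 1.20±0.134 CPM (log2 4.84±0.22, -3.89±0.46 and -3.09±0.34, SE, each with an adjusted p of at most 1.49e-06, edgeR quasi-likelihood, BH). Of the 4 outer membrane partners, 0 higher and 2 lower were called on day 1 and 0 higher and 3 lower on day 14 (2 higher and 1 lower, and 2 higher and 1 lower, with library sizes alone). Vdac1, the main channel of that membrane, fell from 731±50.02 to 185±9.28 CPM from day 0 to day 14. Mtch2, a docking protein for cleaved BID, had 288±10.1 and 176±8.06 CPM, a difference of -0.71±0.07 by TMM that was -0.14 with library sizes alone (adjusted p = 0.0565, edgeR quasi-likelihood, BH) and 0.20 by limma on log2(TPM + 1).

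**Figure D5:**
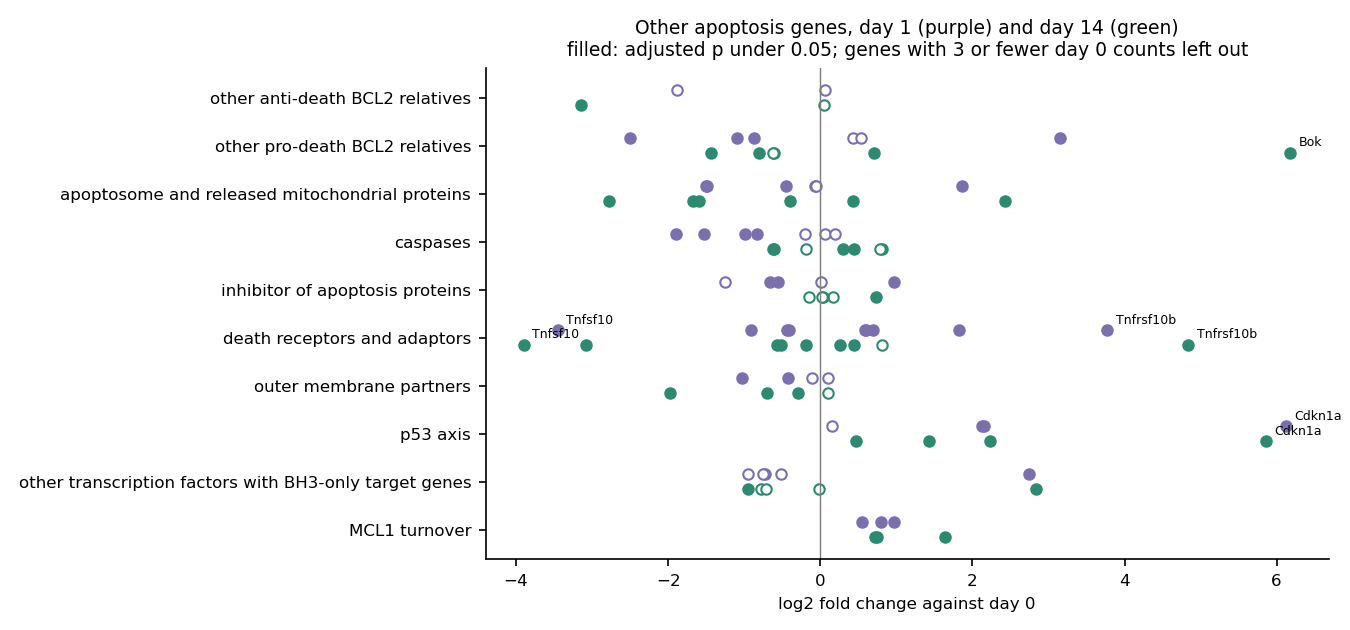
Log2 fold change against day 0 (x axis) of the other apoptosis genes tested, by list (rows), on day 1 (purple) and day 14 (green), with filled symbols for an adjusted p under 0.05. Genes with 3 or fewer counts over the day 0 libraries are left out, and genes beyond 3.3 are named. The p53 axis and MCL1 turnover lie right of 0 on both days, and Bok is the rightmost gene on day 14.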

How the data were processed

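The authors deposited estimated counts and TPM for each gene. The submitters' processing notes list RSEM 1.3.3, STAR 2.7.8a, cutadapt 2.3, FastQC 0.11.8 and the build GRCm38. Annotation release and strandedness: not given in the sources used here. Of 55426 entries, 5 reporter transgenes with 0 counts were left out. Counts, rounded to whole numbers, were fitted with edgeR 4.0.16 (R 4.3.3) over all 18 libraries: TMM, filterByExpr, 1 mean per day, quasi-likelihood F test, Benjamini-Hochberg over 18754 genes, called at 0.05. SE is the log2 fold change over the root of F. Log2 CPM used a prior count of 2. Members and lists were chosen with earlier results of these data known. Besides the members, the rule named up to 3 called genes per list with the largest change on day 1 and day 14 and at least 10 CPM, not all printed, and the genes with the highest r for each member; Bcl2l2 was added after its values were seen. Alternatives were DESeq2 1.42.0 (size factors, Wald test), library sizes alone, no filter, a replicate block, only the 2 days compared, limma 3.58.1 on log2(TPM + 1), on log2(TPM + 0.1) and unfiltered (mean TPM of at least 0.5 otherwise), and each library left out. Replicate letters were checked for pairing by the deviations of libraries from their day means: in 1 of 15 pairs of days, days 2 and 4, all 3 same-letter correlations were over 0.1 (0.16 to 0.293, different letters -0.22 to 0.024). Scripts were tested on simulated data. No libraries of a day were identical. Sequences came from GENCODE vM21 and RefSeq; figures from Python 3.11.15 and matplotlib 3.10.9.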

Additional observations from a re-analysis of the deposited data

How the results depend on the processing

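Over 27 alternatives for each of 90 member comparisons, 2322 values kept their side of the threshold. With the direction kept, 61 lost the call and 43 gained one, while 4 reversed where either fit was called. The 2322 include changes of sign where neither fit was called, as for Bcl2l1 on day 2 against day 1 (-0.152 to 0.17). Bid on day 14 against day 0 made up the 4: 0.068 with library sizes alone, 0.33 by limma on log2(TPM + 1), 0.33 on log2(TPM + 0.1) and 0.33 without the TPM filter, against -0.49. The number of members called on day 14 against day 7 was 3 with library sizes alone, 0 with no filter, 0 with only the 2 days compared, 2 by the DESeq2 Wald test, and 3, 3 and 2 by limma in the order above, against 1. On day 7 against day 4 it was 2 with only the 2 days compared, against 6. With each library left out in turn the number called ran from 9 to 10 on day 1, 10 to 10 on day 2, 8 to 9 on day 4, 8 to 9 on day 7 and 7 to 9 on day 14 against day 0, from 4 to 8 on day 2 against day 1, 6 to 6 on day 4 against day 2, 4 to 8 on day 7 against day 4 and 0 to 2 on day 14 against day 7. The number called over all genes moved too. On day 14 against day 7 it was 2349 of 18754, and 2659 with library sizes alone. It was 1893 of 32474 with no filter, 219 of 16547 with only the 2 days compared and 3067 of 32474 by the DESeq2 Wald test. By limma it was 2318, 2074 and 2250 in the order above. On day 7 against day 4 it was 7107, and from 4990 to 9535 with each library left out. The cause of these differences was not tested.

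The ratio of pro-death to anti-death TPM on days 0, 1, 2, 4, 7 and 14 was 1.23, 1.13, 1.66, 1.62, 1.96 and 2.18. It was 0.687, 0.565, 0.909, 0.770, 1.05 and 1.03 in CPM, 0.730, 0.489, 0.766, 0.519, 0.821 and 0.794 with Bax left out and 2.3, 2.63, 3.45, 2.34, 2.78 and 3.06 with Mcl1 left out. Leaving out each library gave 1.20 to 1.27, 1.08 to 1.18, 1.63 to 1.69, 1.60 to 1.66, 1.93 to 2.04 and 2.13 to 2.22. Over 45 pairs of libraries with the same letter the deviations from the day means correlated at a mean r of 0.035 (8 pairs over 0.1), against -0.018 over 90 pairs with different letters. With the letter as a replicate block over all days the counts of called members were 10, 10, 8, 8 and 8 against day 0 and 7, 6, 6 and 1 between consecutive days, as without it. A replicate block within days 2 and 4 alone, chosen after seeing the data, called 6 members between them, as without it, and changed no member's call. Depth limits Bak1, with 14 to 23 counts per day 0 library, and Bmf, with 11 to 24 on days 1 to 4.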
